A study of Homo sapiens with 10 samples.

Results

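The 10 genes described here encode the proteins that set the phosphorylation of the translation factor eIF2alpha, together with the mitochondrial relay that reports to them. They were chosen by name from 78894 gene IDs in the deposited table, with earlier results of these data known. All 10 belonged to the 29045 genes that passed the low-value filter (at least 3 of 10 libraries with a normalized count reaching 10). The members were the 4 kinases EIF2AK1 (HRI), EIF2AK2 (PKR), EIF2AK3 (PERK) and EIF2AK4 (GCN2), the GCN2 partner GCN1, the substrate EIF2S1 (eIF2alpha itself), the phosphatase subunits PPP1R15A (GADD34) and PPP1R15B (CReP), and the mitochondrial protease OMA1 with its substrate DELE1. Bulk mRNA was sequenced from HEK293T cells, a line derived from human embryonic kidney, after 24 h in 1 of 3 media. These were cysteine-free media (0X-Cys, 2 libraries), complete media (1X-Cys, 4 libraries) and media with 10 times the cysteine of complete media (10X-Cys, 4 libraries), called excess here. The study's text gives another number of replicates for its comparison, and every labelled library was used here. The labels name no edited gene and no other agent in any group, so each group is taken as unmodified cells of 1 line. The methods include a starvation protocol with dialyzed serum in the starvation medium, and the labels do not name the protocol used. The media may therefore differ in more than cysteine. How they act on other cells was not measured.

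Phosphorylated eIF2alpha blocks its own exchange factor eIF2B, which lowers translation of most mRNAs while a few, such as the one for the transcription factor ATF4, are translated better. Each kinase answers to its own signal: HRI to low heme and to mitochondrial stress, PKR to double-stranded RNA, PERK to unfolded proteins in the endoplasmic reticulum, and GCN2 to amino acid shortage sensed on ribosomes with the help of GCN1. The phosphatase PP1 reverses the mark when GADD34, which the pathway itself induces, or CReP, which is made constitutively, brings it to eIF2alpha. Under mitochondrial stress OMA1 cleaves DELE1, and the cleaved form reaches HRI in the cytosol. Activity of kinases and of PP1 is set on the protein, so the mRNA levels given below do not measure it.

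The 250 bases before the RefSeq start site of 4 members (GRCh38.p14, 5′ to 3′ on the gene's strand) are shown because these members had the largest changes in excess cysteine. Capitals mark matches to the motifs described in the text that follows, and OMA1 had none. The regions are chr19:48872171-48872420 (plus strand) for PPP1R15A, chr1:204411818-204412067 (minus strand) for PPP1R15B, chr2:88627465-88627714 (minus strand) for EIF2AK3 and chr1:58546727-58546976 (minus strand) for OMA1.
PPP1R15A: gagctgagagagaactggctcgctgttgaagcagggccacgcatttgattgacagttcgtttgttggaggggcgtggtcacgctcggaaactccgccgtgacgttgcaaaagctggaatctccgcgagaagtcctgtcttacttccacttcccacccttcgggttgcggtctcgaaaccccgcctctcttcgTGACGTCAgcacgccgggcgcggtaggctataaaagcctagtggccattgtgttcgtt
PPP1R15B: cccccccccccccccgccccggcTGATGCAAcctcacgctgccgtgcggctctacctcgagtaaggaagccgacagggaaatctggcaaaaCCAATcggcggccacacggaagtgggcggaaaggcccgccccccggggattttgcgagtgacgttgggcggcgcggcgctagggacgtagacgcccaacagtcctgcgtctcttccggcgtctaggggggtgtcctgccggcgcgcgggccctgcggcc
EIF2AK3: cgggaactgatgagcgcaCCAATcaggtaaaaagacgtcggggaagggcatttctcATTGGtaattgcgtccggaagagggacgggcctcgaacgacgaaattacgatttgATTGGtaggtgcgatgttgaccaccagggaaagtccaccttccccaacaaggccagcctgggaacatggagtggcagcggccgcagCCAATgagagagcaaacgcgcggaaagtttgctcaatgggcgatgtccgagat
OMA1: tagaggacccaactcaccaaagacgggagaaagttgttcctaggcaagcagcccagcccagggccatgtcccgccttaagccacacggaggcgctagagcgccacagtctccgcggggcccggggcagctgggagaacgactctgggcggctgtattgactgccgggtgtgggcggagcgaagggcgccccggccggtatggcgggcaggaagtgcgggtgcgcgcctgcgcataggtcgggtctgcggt
The search covered 300 bases, from 250 before to 50 after the start, on both strands, in 35116 promoters, among them those of 9 members (all but EIF2AK1). TGACGTCA, the cyclic AMP response element bound by CREB and ATF proteins, was held by 1.85% of promoters and by 1 of the 9 members, PPP1R15A, beginning 58 bases before the start. TGATGNAA, a form of the composite site of C/EBP and ATF proteins, was held by 3.62% of promoters and by PPP1R15B, beginning 227 bases before the start. CCAAT, the letters of the CCAAT box, was held by 34.6% of promoters and by 4 members, PPP1R15B, EIF2AK2, EIF2AK3 and DELE1, with 4 matches in EIF2AK3. GAAANNGAA, a core of interferon-response elements, was held by 8.11% of promoters and by EIF2AK2, where it spanned the start. The letters of TGACGTCA, TGATGNAA and GAAANNGAA do not overlap a CCAAT match in these promoters. The motifs were chosen after these promoters were read, so the shares over all promoters do not test whether members hold them more often. These matches are letters in a window, and binding was not measured.

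Libraries held between 34836014 and 61654861 reads on genes. At this depth every member had between 463 and 21082 reads in each library, so the number of libraries, not counting error, limits precision. All 6 HEK293T markers were read (summed normalized count 47424 to 59715 over the libraries), while the 4 liver markers of HepG2 summed to between 4.56 and 34.6, the 4 T cell markers of Jurkat to between 2.03 and 13.7 with CD3E at 0 in every library, and ERBB2, the marker of SKBR3, was present at 2657 to 3365. Reads from mitochondrial genes made up 5.43% ± 0.397 (SD, n = 2) of all reads in cysteine-free, 4.71% ± 0.25 (n = 4) in complete and 0.129% ± 0.0129 (n = 4) in excess media; the part of this difference in the results below was not tested. In bulk libraries, a smaller share of cells with a transcript and less of it per cell cannot be told apart. The labels call the libraries biological replicates without saying whether they came from separate cultures or days, and p-values measure the spread between these libraries. Levels are normalized counts (reads divided by the library's size factor) unless stated otherwise, and changes are log2 differences of normalized count + 1 from limma, taken as a call where the p adjusted over the 29045 genes was no more than 0.01.

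In excess cysteine, 6 of the 10 members changed against complete media, 4 of them higher (PPP1R15A, EIF2AK3, PPP1R15B and EIF2AK2) and 2 lower (OMA1 and EIF2AK4). Of all genes tested 46.0% were called in this comparison, 23.1% higher and 22.9% lower, so a call was common in this comparison. A change of at least 2-fold was less common, at 10.1% of all genes, and was seen in 3 members. The called members were the 6 whose groups did not overlap, as was the case for 51.6% of all genes, and each had the smallest p that an exact permutation test of 4 against 4 libraries can give (p = 0.029). In cysteine-free media 4 members changed, PPP1R15A higher and EIF2S1, PPP1R15B and GCN1 lower, against 15.9% of all genes (7.39% higher and 8.51% lower). Each of these 4 changes was under 1.5-fold. Groups did not overlap for 6 members in this comparison, the 4 called with OMA1 and EIF2AK1, and for 46.9% of all genes. The median change of the 10 members was -0.02 in excess and -0.07 in cysteine-free media, beside 0.014 and 0.0024 over all genes. Both comparisons use the same 4 complete libraries and are not independent of each other.

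**Figure D1:**
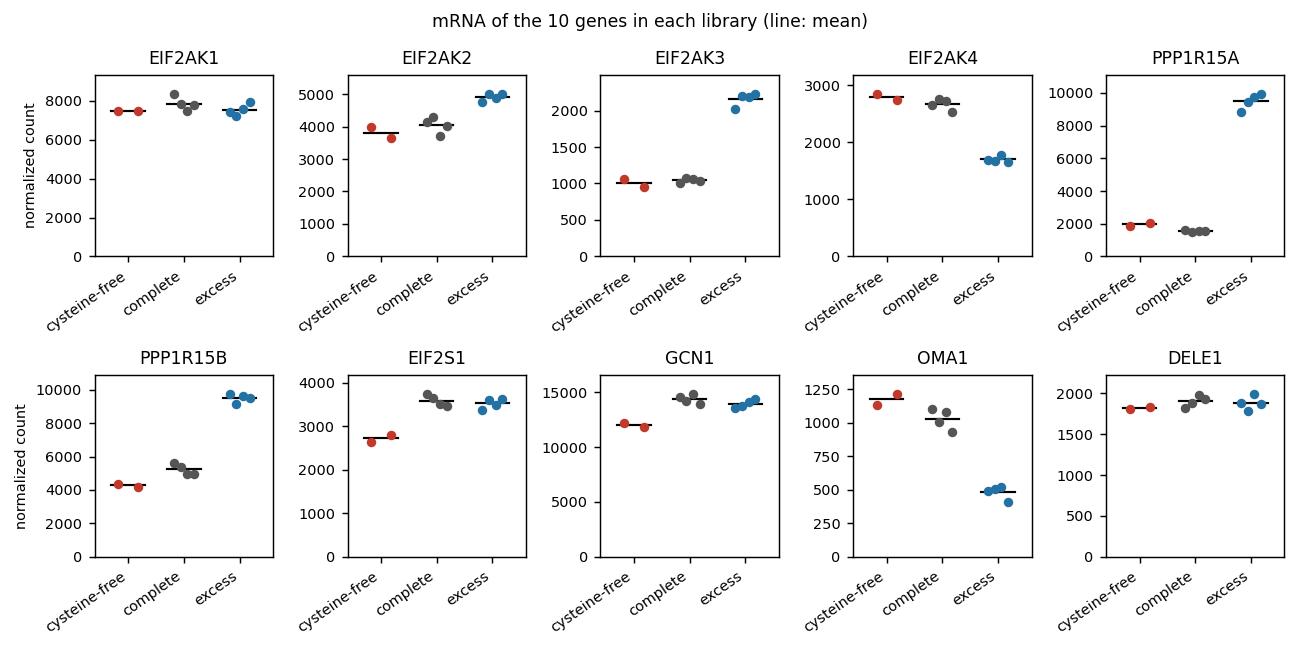
Normalized count of each of the 10 members in every library (linear axis), by medium, with points for libraries and a line for the group mean. The 4 excess libraries sit at 8855 to 9936 for PPP1R15A and at 408.7 to 516 for OMA1, clear of both other media, while the 3 media overlap for DELE1.

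EIF2AK3 encodes PERK, the kinase of the endoplasmic reticulum membrane (ENSG00000172071, chromosome 2, 88556741 to 88691518, minus strand, GRCh38). Its normalized count was 1055 and 948 in the cysteine-free libraries, 1008, 1078, 1059 and 1029 in the complete libraries, and 2019.5, 2206, 2191 and 2227 in the excess libraries. The excess libraries were all about 2-fold above the others, whereas the cysteine-free libraries lay on both sides of the complete ones. EIF2AK3 rose 2.07-fold in excess cysteine (log2 fold change 1.05, SE 0.051, 95% interval 0.94 to 1.16, limma adjusted p = 3.24e-11). Its change in cysteine-free media was -0.06 (SE 0.078, interval -0.23 to 0.10, limma adjusted p = 0.598). An unnamed lncRNA (ENSG00000225420) on the other strand shares 3.77% of its exon bases and went from 229 to 496, a log2 change of 1.11; with that gene's whole value subtracted, more than the shared bases would hold, the EIF2AK3 change was 1.03.

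EIF2AK4 encodes GCN2, the kinase that responds to amino acid shortage (ENSG00000128829, chromosome 15, 39934115 to 40035591, plus strand). Libraries held 2845 and 2745 normalized counts in cysteine-free, 2658.5, 2754, 2723 and 2533 in complete, and 1696, 1669, 1775 and 1656 in excess media. Every excess library was below every other library, and the cysteine-free and complete libraries overlapped. EIF2AK4 fell by 0.65 on the log2 scale in excess cysteine, to 0.637 of its level in complete media (SE 0.047, interval -0.75 to -0.55, limma adjusted p = 3.93e-09). In cysteine-free media its change was 0.07 (SE 0.061, interval -0.06 to 0.20, limma adjusted p = 0.441).

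EIF2AK2 encodes PKR, the kinase activated by double-stranded RNA (ENSG00000055332, chromosome 2, 37099210 to 37157522, minus strand). Its normalized counts were 3983 and 3651 in cysteine-free, 4143, 4290.3, 3695 and 4028 in complete, and 4748, 5003, 4867 and 4988 in excess media. The excess libraries were above all others by a small margin. EIF2AK2 rose 1.22-fold in excess cysteine (log2 0.28, SE 0.047, limma adjusted p = 6.94e-05), and in cysteine-free media the value was -0.08 (SE 0.067, interval -0.23 to 0.06, limma adjusted p = 0.409). GPATCH11 and the pseudogene ARL14EPP1 share 0.317% and 3.63% of its exon bases on the other strand. With their whole values subtracted, more than the shared bases would hold, the excess change was 0.42. The cysteine-free value then turned to 0.05, which did not pass the test either.

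EIF2AK1 encodes HRI, the heme-regulated kinase on which the mitochondrial relay acts (ENSG00000086232, chromosome 7, 6022247 to 6059175, minus strand). The libraries ranged from 7456 to 7477 in cysteine-free, 7488 to 8356 in complete and 7236 to 7941 in excess media. The group means of 7467 ± 14.8 (SD, n = 2), 7868 ± 360.4 (n = 4) and 7547 ± 297 (n = 4) differed by less than the tests could call, with log2 changes against complete media of -0.07 (interval -0.19 to 0.04, limma adjusted p = 0.337) in cysteine-free and -0.06 (interval -0.15 to 0.03, limma adjusted p = 0.243) in excess media. Both intervals leave room only for small changes. AIMP2, which shares 9.69% of its exon bases on the other strand, fell by 0.21 in excess media. Subtracting the whole AIMP2 value, more than the shared bases would hold, moved the EIF2AK1 change to 0.01.

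Set on a common scale per length (RPKM: reads per kb of the canonical transcript, scaled to the reads on nuclear genes), EIF2AK1 was the most abundant of the kinases in every library. In complete media the levels were 43.2 for EIF2AK1, 11.7 for EIF2AK4, 9.81 for EIF2AK2 and 5.58 for EIF2AK3. In excess media they were 42.5 for EIF2AK1, 12.2 for EIF2AK2, 11.8 for EIF2AK3 and 7.63 for EIF2AK4. The share of EIF2AK3 in the summed kinase level was 7.88% ± 0.437 (n = 2) in cysteine-free, 7.94% ± 0.411 (n = 4) in complete and 16.0% ± 0.544 (n = 4) in excess media, and the share of EIF2AK4 was 18.02% ± 0.0941, 16.6% ± 0.786 and 10.3% ± 0.432. The sum itself was 69.5 ± 2.09, 70.3 ± 1.96 and 74.2 ± 1.41, so the shares of PERK and GCN2 mRNA differed between media by more than the total did. These shares depend on the transcript length used: with the length of all annotated exons, EIF2AK3 took 2.43%, 2.44% and 5.06% and EIF2AK2 stood above EIF2AK4 in complete media too. They describe the members and carry no test.

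**Figure D2:**
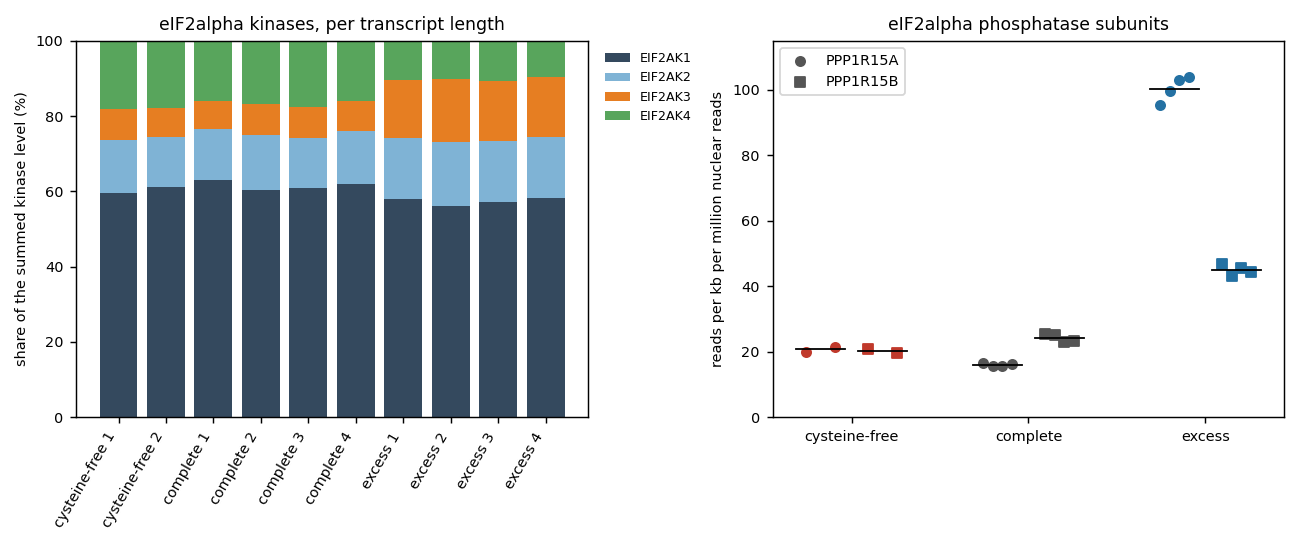
Left, share of each kinase in the summed per-length level of the 4 kinases (percent) in each library; right, per-length level of PPP1R15A and PPP1R15B, with points for libraries and a line for the group mean. The EIF2AK3 band is 16.0% of the sum in excess and 7.94% in complete media, and PPP1R15A stands above PPP1R15B in the excess libraries and below it in the complete ones.

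GCN1 encodes the ribosome-bound partner that GCN2 needs to sense amino acid shortage (ENSG00000089154, chromosome 12, 120127202 to 120194715, minus strand). Its normalized counts were 12160.4 and 11796 in cysteine-free, 14569, 14174, 14806 and 13934 in complete, and 13533, 13767, 14137 and 14369 in excess media. Only the cysteine-free libraries stood apart, below the other 8. GCN1 fell by 0.26 on the log2 scale in cysteine-free media (SE 0.047, interval -0.36 to -0.16, limma adjusted p = 1.12e-03), to 0.834 of its level in complete media, and its change in excess media was -0.04 (SE 0.035, interval -0.12 to 0.03, limma adjusted p = 0.314). The ratio of GCN1 to EIF2AK4 per length was 2.73 in cysteine-free, 3.44 in complete and 5.24 in excess media, with the numerator lower in the first and the denominator lower in the last. With the length of all annotated exons the ratios were 5.32, 6.69 and 10.2, in the same order.

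EIF2S1 encodes eIF2alpha, the phosphorylated subunit (ENSG00000134001, chromosome 14, 67360328 to 67386516, plus strand). Libraries held 2645 and 2797 normalized counts in cysteine-free, 3732, 3648, 3511 and 3452 in complete, and 3377, 3593, 3491 and 3626 in excess media. As with GCN1, the cysteine-free libraries lay below all others and the complete and excess libraries were intermixed. EIF2S1 fell by 0.40 on the log2 scale in cysteine-free media (SE 0.059, interval -0.53 to -0.27, limma adjusted p = 2.96e-04), to 0.759 of the complete level, which was the largest change of a member there. In excess media it was -0.03 (SE 0.043, interval -0.12 to 0.07, limma adjusted p = 0.634).

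PPP1R15A, which encodes the inducible phosphatase subunit GADD34, had the largest change of the 10 in excess media (ENSG00000087074, chromosome 19, 48872212 to 48876059, plus strand). Its normalized counts were 1883 and 2057 in cysteine-free, 1644, 1507, 1525 and 1547 in complete, and 8855, 9447, 9728 and 9936 in excess media. The 3 media did not overlap, and the order was complete, cysteine-free, excess. PPP1R15A rose 6.10-fold in excess cysteine (log2 2.61, SE 0.046, interval 2.51 to 2.71, limma adjusted p = 8.95e-17), and 173 of the 29045 genes had a larger increase. In cysteine-free media it rose 1.27-fold (log2 0.34, SE 0.070, interval 0.19 to 0.49, limma adjusted p = 2.69e-03).

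PPP1R15B encodes CReP, the constitutive counterpart (ENSG00000158615, chromosome 1, 204396492 to 204411887, minus strand). Libraries held 4378 and 4167 normalized counts in cysteine-free, 5643, 5361, 4987 and 4969.8 in complete, and 9735, 9145, 9646 and 9518 in excess media. The media again did not overlap, but here the cysteine-free libraries were the lowest. PPP1R15B rose 1.82-fold in excess cysteine (log2 0.86, SE 0.045, interval 0.77 to 0.96, limma adjusted p = 6.09e-11). It fell by 0.29 in cysteine-free media (SE 0.063, interval -0.43 to -0.16, limma adjusted p = 3.58e-03), the opposite direction to PPP1R15A. A lncRNA (ENSG00000288934) on the other strand shares 5.60% of its exon bases and went from 458 to 842 between complete and excess media. Subtracting its whole value, more than the shared bases would hold, left the PPP1R15B changes at 0.86 and -0.29.

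Per length, the ratio of PPP1R15A to PPP1R15B was 1.03 ± 0.101 (SD, n = 2) in cysteine-free, 0.666 ± 0.0308 (n = 4) in complete and 2.24 ± 0.137 (n = 4) in excess media. Their sum was 41.0 ± 0.189 and 40.2 ± 1.44 RPKM in the first 2 media, where the higher PPP1R15A and lower PPP1R15B offset each other, and 145 ± 3.42 in excess media. Set against the summed kinase level, the phosphatase subunits came to 0.590, 0.572 and 1.96. With the length of all annotated exons the PPP1R15A to PPP1R15B ratios were 1.26, 0.809 and 2.72. The values against the summed kinase level were then 0.519, 0.490 and 1.83. These ratios of mRNA carry no test and do not measure a balance of phosphatase and kinase activity.

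OMA1 encodes the stress-activated protease of the mitochondrial inner membrane (ENSG00000162600, chromosome 1, 58415384 to 58546802, minus strand). Its normalized counts were 1136 and 1212 in cysteine-free, 1102, 1008, 1080.2 and 927 in complete, and 487.9, 503, 516 and 408.7 in excess media. Every excess library was below every library of the other media. OMA1 fell by 1.10 on the log2 scale in excess cysteine, a 2.15-fold lower level (SE 0.081, interval -1.28 to -0.93, limma adjusted p = 4.49e-09). In cysteine-free media both libraries were above the complete ones, but the change of 0.19 did not pass the test (SE 0.085, interval 0.01 to 0.37, limma adjusted p = 0.114). DAB1, which shares 6.91% of the OMA1 exon bases on the same strand, went from 291 to 217 in excess media. Subtracting the whole DAB1 value, more than the shared bases would hold, gave an OMA1 change of -1.49. The share of mitochondrial reads was lowest in the same 4 excess libraries, and its part in the OMA1 result was not tested.

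DELE1 encodes the OMA1 substrate that carries the signal to HRI (ENSG00000081791, chromosome 5, 141923855 to 141942047, plus strand). The libraries ranged from 1805 to 1835 in cysteine-free, 1820.3 to 1978 in complete and 1787 to 1989 in excess media, and all 3 groups overlapped. Its log2 changes against complete media were -0.06 (interval -0.20 to 0.08, limma adjusted p = 0.509) in cysteine-free and -0.01 (interval -0.12 to 0.09, limma adjusted p = 0.826) in excess media. The relay therefore had a protease mRNA that was lower in excess cysteine beside a substrate mRNA and a kinase mRNA, EIF2AK1, that were not called in any comparison. The per-length ratio of OMA1 to DELE1 was 1.70 ± 0.0580 (SD, n = 2) in cysteine-free, 1.43 ± 0.136 (n = 4) in complete and 0.671 ± 0.0697 (n = 4) in excess media. With the length of all annotated exons it was 1.04, 0.875 and 0.411, so which of the genes stood higher in complete media depends on the length used.

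**Figure D3:**
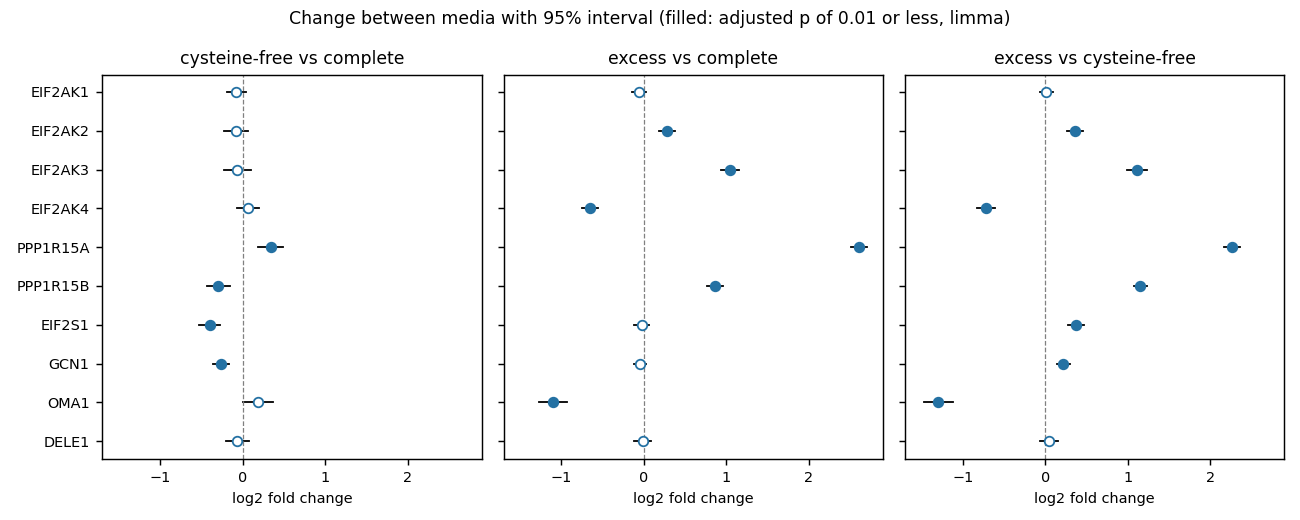
Log2 fold change of each member with its 95% interval, for cysteine-free and excess media against complete media and for excess against cysteine-free media. Against complete media, PPP1R15A at 2.61 and OMA1 at -1.10 mark the ends of the excess values, while all cysteine-free values lie between -0.40 and 0.34.

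The cysteine-free calls rested on few libraries. None of the 4 was called without cysteine-free replicate 1, which leaves 1 library that is assumed to vary like the complete ones (limma adjusted p of 0.0182 for PPP1R15A, 0.0331 for PPP1R15B, 0.0168 for EIF2S1 and 0.0199 for GCN1, with 4 members at an unadjusted p under 0.05). Without cysteine-free replicate 2 EIF2S1 alone was called (limma adjusted p of 7.78e-03, against 0.0783 for PPP1R15A, 0.0816 for PPP1R15B and 0.0399 for GCN1). Without complete replicate 1, PPP1R15B was not called (limma adjusted p = 0.0115), and without complete replicate 2, neither PPP1R15A (limma adjusted p = 0.0134) nor PPP1R15B (limma adjusted p = 0.0186) was. With no filter on low values none of the 4 was called by limma, with 4 members at an unadjusted p under 0.05. The directions held in all these fits, and the 2 against 4 libraries cannot give an exact permutation p below 0.067. On the recovered reads, edgeR and DESeq2 each called 4 members. The 6 calls in excess media held without any of the 8 libraries.

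The direct comparison of excess with cysteine-free media, which uses no complete library, called 8 of the 10 members, 6 higher and 2 lower, beside 48.0% of all genes (24.4% higher and 23.6% lower). The median change of the members was 0.29, beside 1.03e-05 over all genes. PPP1R15A was 4.82-fold higher in excess than in cysteine-free media (log2 2.27, SE 0.047, limma adjusted p = 3.16e-22). PPP1R15B was 2.23-fold higher (log2 1.15, SE 0.040, limma adjusted p = 1.01e-17) and EIF2AK3 2.16-fold higher (log2 1.11, SE 0.058, limma adjusted p = 2.90e-14). OMA1 was 2.46-fold lower (log2 -1.30, SE 0.084, limma adjusted p = 1.93e-12) and EIF2AK4 stood at 0.608 of its cysteine-free level (limma adjusted p = 8.48e-12). EIF2S1 (0.37, limma adjusted p = 1.90e-07), EIF2AK2 (0.36, limma adjusted p = 1.49e-07) and GCN1 (0.22, limma adjusted p = 1.28e-05) were higher by less. EIF2AK1 (0.01, interval -0.07 to 0.10, limma adjusted p = 0.778) and DELE1 (0.05, interval -0.06 to 0.16, limma adjusted p = 0.446) were not called.

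Genes that act next to the members were taken as 5 lists, and all 45 of their genes passed the filter. The lists were chosen with earlier results of these data known, so their counts describe them and are not an independent test. The list counts stand beside calls over all genes of 46.0% in excess media (23.1% higher, 22.9% lower). In cysteine-free media that share was 15.9% (7.39% higher, 8.51% lower), and in the direct comparison 48.0%. The 11 genes of the pathway's output, ATF4 and genes induced with it, were all called higher in both altered media, with a median log2 change of 1.00 in cysteine-free and 1.83 in excess media. TRIB3, a pseudokinase induced by the pathway, rose from 1262 ± 68.7 to 2671 ± 295 in cysteine-free and to 12608 ± 542 in excess media (log2 1.08 and 3.32). ATF3 (log2 2.93), CEBPB (2.40) and DDIT3 (2.19), which encode transcription factors of the same response, were the next in size in excess media. ATF4, named after its values were seen, had the smallest change of the 11 in cysteine-free (0.24) and in excess media (0.47). Compared directly, 9 of the 11 were higher in excess than in cysteine-free media, and, named after their values were seen, DDIT4, an inhibitor of mTORC1, was lower (-0.68) and CHAC1, a glutathione-degrading enzyme, was not called (0.038, limma adjusted p = 0.585). The 11 higher in cysteine-free media were 9 without cysteine-free replicate 1 and 8 without cysteine-free replicate 2, with all 11 above 0 in each, while the 11 in excess media held without any library. With no filter on low values limma called 5 of the 11 in cysteine-free media, and edgeR and DESeq2 under the usual filter 11 each.

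The 14 regulators of the kinases did not move as a group. In excess media 5 were higher, 4 lower and 5 not called (median -0.01), and in cysteine-free media 2 were higher, 3 lower and 9 not called (median -0.07). HMOX1, the heme-degrading oxygenase, rose from 389 ± 40.3 to 2664 ± 184 in excess cysteine (log2 2.78) and to 592 ± 44.1 in cysteine-free media (0.61). ALAS1, the entry enzyme of heme synthesis, rose from 2209 ± 87.8 to 5680.3 ± 380.3 in excess media (1.36) and had a value of -0.06 in cysteine-free media. HSP90AB1 and HSP90AA1, cytosolic chaperones that bind HRI and other kinases, fell by 1.04 and 0.96 in excess and by 0.52 and 0.55 in cysteine-free media. Chosen after their values were seen, IMPACT, which competes for GCN1 and restrains GCN2, changed in opposite directions, from 2399 ± 138 in complete media to 3740.4 ± 152 in cysteine-free (log2 0.64, limma adjusted p = 1.92e-05) and 1519 ± 33.5 in excess media (-0.66, limma adjusted p = 9.54e-09). The direct difference between those media was -1.30 (limma adjusted p = 8.68e-17). The PERK-side chaperones DNAJC3 (0.79) and HSPA5 (0.71), likewise chosen afterwards, rose in excess media beside EIF2AK3, and HSPA5 fell by 0.35 in cysteine-free media. Without cysteine-free replicate 1 the cysteine-free calls of HMOX1 (limma adjusted p = 0.0184) and HSPA5 (0.0116) were lost, and without cysteine-free replicate 2 that of HMOX1 (0.0515), whereas IMPACT and both HSP90 genes were called without either. Without complete replicate 4 the regulators lower in excess media were 7, and without complete replicate 3 those higher in cysteine-free media were 4.

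Of the 7 other subunits of eIF2 and eIF2B, 3 were higher and 2 lower in excess media (median -0.02), and 1 was lower in cysteine-free media (median -0.19). The largest were EIF2B3, a catalytic-side subunit of eIF2B, at -0.52 in excess media, EIF2B4, of its regulatory core, at -0.36 in cysteine-free media, and EIF2S2 (0.31) and EIF2B2 (0.27) in excess media. The remaining calls, of EIF2S3 (0.27) and EIF2B1 (-0.22) in excess media, were named after their values were seen, and EIF2B4 was not called without either cysteine-free library (limma adjusted p = 0.0391 and 0.0140). The count of 1 in cysteine-free media was 2 without complete replicate 4. Among the 3 catalytic subunits of PP1, to which GADD34 and CReP bind, PPP1CA (-0.37) and PPP1CC (-0.24) fell in excess media (list median -0.24). In cysteine-free media the values of PPP1CA (-0.12), PPP1CB (0.050) and PPP1CC (-0.22) did not pass the test (limma adjusted p = 0.114, 0.566 and 0.0114, list median -0.12), though 1 of the 3 did without complete replicate 4. PPP1CB, the remaining catalytic subunit, had a value of 0.055 in excess media (limma adjusted p = 0.346), so no catalytic subunit rose beside the targeting subunits. Of the 10 neighbours of OMA1 in the inner membrane and matrix, 7 were lower and 2 higher in excess media (median -0.34), and 3 were lower in cysteine-free media (median -0.21). PHB1 (-0.70) and PHB2 (-0.36), the prohibitins that scaffold the inner membrane, PGAM5 (-0.60), a mitochondrial phosphatase that OMA1 can cleave, and AFG3L2 (-0.39), a protease subunit, fell in excess media. PHB1 (-0.36) and PGAM5 (-0.46) also fell in cysteine-free media, where the OMA1 change did not pass the test, together with OPA1 (-0.33), the fusion GTPase that OMA1 cleaves. Chosen after their values were seen, the 2 higher in excess media were the matrix protease LONP1 (0.26) and YME1L1 (0.21), the other protease that cleaves OPA1. The count of 3 in cysteine-free media was 1 without cysteine-free replicate 1, 2 without cysteine-free replicate 2 or complete replicate 2 and 4 without any of the other complete replicates, and OPA1 was not called without either cysteine-free library (limma adjusted p = 0.0510 and 0.0219). Over the 4 lists other than the output, limma called 9 of 34 genes in cysteine-free media and 0 with no filter on low values, where 23 had an unadjusted p under 0.05, and under the usual filter edgeR called 10 and DESeq2 13.

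**Figure D4:**
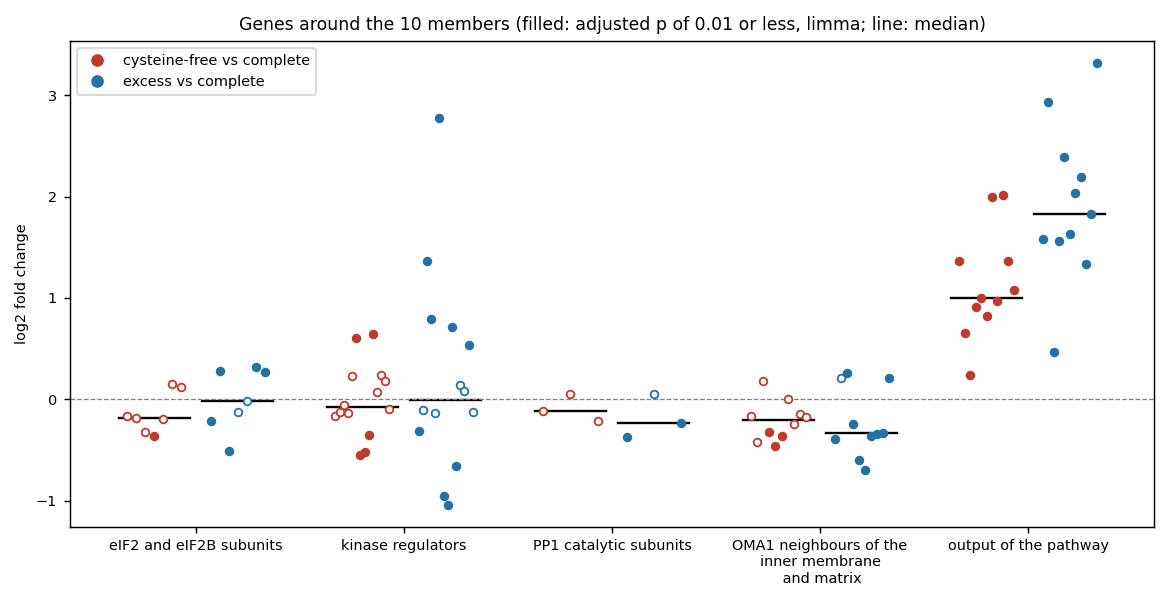
Log2 fold change of each gene of the 5 lists against complete media, for cysteine-free and excess media, with the list median as a line. The 11 output genes lie above 0 in both media (medians 1.00 and 1.83), whereas the other lists spread on both sides of 0.

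Likeness was measured as the distance between genes in the plane of both log2 changes against complete media (cysteine-free and excess), over 14551 candidate genes and the same 10 libraries, for the 3 members that changed at least 2-fold. Nearest to EIF2AK3 were TBC1D9, METTL4 and ZNF383, at distances of 0.0076, 0.0088 and 0.0092. Nearest to OMA1 were SLC29A2, SPARC and ASIC1, at 0.017, 0.028 and 0.035. PPP1R15A had no gene as near, and its closest were UPP1 at 0.246, ENTREP1 at 0.262 and INSC at 0.281. Among all genes tested, 173 rose more than PPP1R15A in excess media, 2118 rose more than EIF2AK3 and 1043 fell more than OMA1. Distance depends on how many genes change by a similar amount, and whether PPP1R15A is unusual for its size of change was not tested. The EIF2AK3 and OMA1 distances were below the SEs of both changes (0.078 and 0.051 for EIF2AK3, 0.085 and 0.081 for OMA1). The nearest genes of EIF2AK3 and OMA1 are therefore not resolved.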

How the data were processed

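Poly(A)-selected libraries of HEK293T cells took their groups from the labels. The authors aligned reads with STAR 2.7.10b to GRCh38, counted them per Ensembl gene (featureCounts in the methods, HTSeq in the submitters' processing notes) and deposited 1 table holding a signal per gene, the read count after division by a size factor from DESeq2. The methods state that reads over several genes were discarded, while the strand setting and annotation release are not given in the sources used here. In the files, 356 of 470 genes lying wholly inside a same-strand exon of a gene with 1000 or more reads, and 281 of 317 on the other strand, had 10 or more reads themselves, so shared reads cannot be left aside for overlapping genes. In each library 100.0% of values were whole multiples of 1 step, which gave back the reads. Symbols came from GENCODE 44 (61463 of 78894 IDs matched).

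Genes were kept where at least 3 libraries reached a value of 10. Log2 of the value + 1 was fitted with limma 3.58.1 (lmFit, eBayes with trend, R 4.3.3), 2-sided, on the groups of each comparison only, with Benjamini-Hochberg adjustment over the kept genes and a threshold of 0.01. Applied to the recovered reads, edgeR (4.0.16) called 4941, 13525 and 13834 genes in cysteine-free against complete, excess against complete and excess against cysteine-free media, and DESeq2 (1.42.0) called 5435, 13816 and 13126. On simulated data with 200 genes changed 2-fold among 29045, limma called 191, 197 and 193 of them in these 3 comparisons. Of the unchanged genes limma called 0, 4 and 3. These counts do not speak to smaller changes, such as those of the members called in cysteine-free media. Samples of equal replicate number did not deviate together (correlations from -0.116 to 0.103), and no replicate pair agreed within sampling noise (chi-square per degree of freedom 3.54 to 14.8).

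The members and lists were chosen with earlier results of these data known. All members are named, with up to 4 genes per list, those with the largest called change against complete media, and the 3 genes most like each member that changed at least 2-fold. The motifs were chosen after the promoters were read. Promoter sequences are from RefSeq (GRCh38.p14). Alternatives were other pseudocounts, filters, scalings, thresholds and tools, 1 fit of all groups, a replicate block, each library left out and, added after seeing the data, subtraction of overlapping genes and list counts without each library.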

Additional observations from a re-analysis of the deposited data

How the results depend on the processing

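The 6 members called in excess against complete media were 6 or 7 under every alternative but the requirement of a 2-fold change (3 members); quantile normalization added GCN1 (0.093, limma adjusted p = 6.51e-03). The 8 called in excess against cysteine-free media became 4 at 2-fold and 7 with no filter, and stayed at 8 whichever library was left out. The 4 called in cysteine-free against complete media became 0 at 2-fold and 0 with no filter, where 5 and 4 had an unadjusted limma p under 0.05 with edgeR and DESeq2 each calling 4 under the usual filter, and ranged from 0 to 4 when 1 library was left out. Over all genes that comparison called 4618, against 390 with no filter, 7987 at an adjusted p of 0.05, 609 at 2-fold and 978 to 6300 with 1 library left out. The excess comparison called 13372, against 2942 at 2-fold, and the direct one 13954, against 6877 with no filter and 3610 at 2-fold. With the replicate block 4, 6 and 8 members and 6532, 13392 and 12393 genes were called.

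Signs turned only for members not called in the results above, though GCN1 in excess media was called once turned, with quantile normalization. In cysteine-free media these were EIF2AK3 (-0.14 to 0.015 with 1 library left out, above 0 without cysteine-free replicate 2) and EIF2AK2 (0.054 less overlapping genes). In excess media, equal totals gave EIF2AK1 0.046, EIF2S1 0.080, GCN1 0.063 and DELE1 0.091, equal nuclear totals EIF2S1 0.012 and DELE1 0.024, and quantile normalization EIF2S1 0.027 and DELE1 0.025 beside GCN1. DELE1 ranged from -0.041 to 0.011 with 1 library left out, above 0 without complete replicate 3 or excess replicate 2, and EIF2AK1 was 0.0088 less overlapping genes. In the direct comparison EIF2AK1 was -0.0080 with quantile normalization, -0.025 with the replicate block and -0.010 to 0.035 with 1 library left out, below 0 without excess replicate 4. Equal totals moved the median change in excess media of 17679 genes with a mean of at least 100 from -0.02 to 0.08, and the called genes from 6721 higher and 6651 lower to 8409 and 5197. With equal totals over nuclear genes that median was 0.014, and 7285 genes were called higher and 6089 lower. The cause of these shifts was not tested.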
